A study of Homo sapiens with 20 samples.

Results

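The genes of glycolysis and of the response to low oxygen were followed in human multiple myeloma cells. They were 40 of the 60483 genes in the deposited expression tables, chosen by gene symbol, and each symbol was found once. The 40 comprised 17 genes of glycolytic enzymes, 8 genes of glucose and lactate transporters and of regulators of glycolytic flux, 14 other targets of the hypoxia-inducible factor HIF1, and HIF1A, which encodes the oxygen-regulated subunit of HIF1. Glycolysis turns glucose into pyruvate in the cytosol, and lactate dehydrogenase can turn the pyruvate into lactate, which monocarboxylate transporters carry out of the cell. When oxygen is plentiful, prolyl hydroxylases mark HIF1A protein for destruction; when oxygen falls, HIF1A pairs with ARNT, binds short sites near its target genes and raises glycolytic enzymes together with genes of vessel growth, mitochondrial removal, collagen hydroxylation and its own inhibitors. Myeloma cells are malignant plasma cells that grow in the bone marrow, a tissue low in oxygen, and they are known to use glycolysis heavily.

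Total RNA was sequenced from 5 models of multiple myeloma, each given the solvent DMSO or indirubin-3'-monoxime (I3MO). Indirubins inhibit several protein kinases and can bind the aryl hydrocarbon receptor, a transcription factor that also uses ARNT as its partner. ANBL6, labelled wild type, was given DMSO or 5 µM I3MO. ANBL6BR, the form of ANBL6 labelled bortezomib resistant (bortezomib is a proteasome inhibitor), was given DMSO or 5 µM I3MO. ARP1, RPMI8226 and U266, all labelled wild type, were given DMSO or 10 µM I3MO, so the dose and the model cannot be told apart outside the ANBL6 pair. Each of the 10 groups had 2 libraries, 20 in all. The labels give bone marrow as the source of every sample and name established cell lines. How ANBL6BR was made, the length of treatment, the oxygen in culture and whether the 2 libraries of a group came from separate cultures are not given in the sources used here, so p-values measure only the spread between these libraries, which may be technical.

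Levels are the authors' FPKM, fragments scaled to gene length in kilobases and to M fragments of the library. The libraries held 12.11 to 20.31 M fragments on protein-coding genes. In the ANBL6 libraries with I3MO 32668 and 28419 genes were above 0, against 20766 to 26588 in the other 18 libraries, and its part in the I3MO response of ANBL6 was not tested. Of 9 plasma cell markers, 8 were above 0 in every library and XBP1 was listed at 0 in all 20; their summed level was 186 to 619 FPKM with DMSO and 212 to 469 with I3MO. Marker lists of other marrow cells summed to at most 0.979 FPKM for T cells, 0.622 for myeloid cells, 4.19 for stromal cells and 5.99 for erythroid cells. A gene entered the tests with at least 1 FPKM in at least 2 libraries, which 15687 genes did, 38 members among them: all 17 enzymes, 7 transporters and regulators, 13 other HIF1 targets and HIF1A. PFKFB4, a kinase that sets the level of a glycolytic activator, reached 0.907 FPKM at most and CA9, a carbonic anhydrase, 0.692, so both were left untested. Differences are on the scale log2(FPKM + 1), on which changes of low genes are understated, and a gene was called at a limma p, adjusted over all tested genes, under 0.05. Where a call was lost without 1 library, the limma adjusted p without that library follows it in parentheses. In bulk RNA, fewer cells with a transcript and less of it per cell cannot be told apart.

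HIF1 binds the core ACGTG and, less often, GCGTG; the latter is also the core of the site of the aryl hydrocarbon receptor, and both were searched on both strands in the 250 bases before the start sites listed by RefSeq for GRCh38.p14. Of the 40 members 34 had an entry; SLC16A1, NDRG1, SLC2A3, VEGFA, BNIP3L and HILPDA had none. In the first listed promoter of each gene ACGTG was found in 41.2% of the 34 members and in 18.7% of all 27305 genes, and GCGTG in 38.2% and 31.9%. ACGTG was in the first listed promoter of 8 of the 17 enzymes and of 5 of the 10 other HIF1 targets with an entry. The promoters below belong to the 5 members with an entry that were lower with I3MO in at least 3 models, and are shown because a shared response invites a look for shared letters. Capitals mark ACGTG or GCGTG, or their complements CACGT and CACGC, and the sequences read 5′ to 3′ on the gene's strand and end at the base before the start site. ALDOC, encoding an aldolase (chr17:28576896-28577145, minus strand), held 3 ACGTG matches, a pair of them from 1 palindromic CACGTG, and 2 GCGTG matches. TPI1, encoding triosephosphate isomerase (chr12:6867281-6867530, plus strand), held none in the window shown, and its second listed start held 1 of each. PGAM1, encoding a phosphoglycerate mutase (chr10:97427568-97427817, plus strand), held none. ENO2, encoding an enolase (chr12:6914330-6914579, plus strand), held 1 ACGTG. PDK3, encoding a pyruvate dehydrogenase kinase (chrX:24465036-24465285, plus strand), held 1 of each. The windows of ALDOC, TPI1, PGAM1 and ENO2 lie inside the spans of these genes in GENCODE 29, so GENCODE 29 places starts upstream of them. A match is a description of the letters and not evidence of binding.
ALDOC: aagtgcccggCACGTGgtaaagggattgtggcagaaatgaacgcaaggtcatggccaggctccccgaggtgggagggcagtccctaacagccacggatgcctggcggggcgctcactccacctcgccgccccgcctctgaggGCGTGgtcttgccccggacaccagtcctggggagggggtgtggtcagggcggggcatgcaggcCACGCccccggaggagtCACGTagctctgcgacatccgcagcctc
TPI1: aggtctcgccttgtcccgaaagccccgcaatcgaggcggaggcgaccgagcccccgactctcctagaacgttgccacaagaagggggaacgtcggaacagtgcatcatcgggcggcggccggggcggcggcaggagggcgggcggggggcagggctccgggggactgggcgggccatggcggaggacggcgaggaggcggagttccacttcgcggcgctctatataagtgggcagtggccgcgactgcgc
PGAM1: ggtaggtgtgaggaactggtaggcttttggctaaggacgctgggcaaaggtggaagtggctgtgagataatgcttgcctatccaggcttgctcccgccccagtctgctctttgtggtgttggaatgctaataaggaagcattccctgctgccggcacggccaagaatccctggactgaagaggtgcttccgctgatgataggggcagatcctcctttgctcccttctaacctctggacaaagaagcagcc
ENO2: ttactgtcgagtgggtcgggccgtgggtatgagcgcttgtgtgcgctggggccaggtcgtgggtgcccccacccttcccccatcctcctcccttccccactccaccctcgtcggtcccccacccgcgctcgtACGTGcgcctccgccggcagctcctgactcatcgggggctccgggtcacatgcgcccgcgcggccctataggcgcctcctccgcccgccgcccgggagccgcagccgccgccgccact
PDK3: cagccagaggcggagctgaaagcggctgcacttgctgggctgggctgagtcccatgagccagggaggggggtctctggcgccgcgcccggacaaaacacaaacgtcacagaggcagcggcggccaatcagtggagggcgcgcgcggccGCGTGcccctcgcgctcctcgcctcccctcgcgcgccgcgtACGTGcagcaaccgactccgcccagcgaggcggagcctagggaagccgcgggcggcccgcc

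With DMSO the 5 models differed in which isozymes and transporters they expressed. The level of 37 of 38 tested members was unequal between models (limma F test, 90.0% of all tested genes); ANKRD37 was not called (limma adjusted p = 0.0599). A share so near its background says little about the members. The authors' gene length sums the exons of all transcripts, which for the members made it a median of 2.75 times the merged exon length, so levels of different genes were set side by side only on merged exon length. Merged lengths are those of GENCODE 29. For 12 members, HK1, GPI, PFKM, ALDOA, PGK1, ENO1, SLC2A1, PDK3, PFKFB3, VEGFA, BNIP3 and BNIP3L, the length in use differed from the summed exons of GENCODE 29. Their levels on that scale carry this mismatch. On that scale ENO1, the common enolase, was at 1550.0 ± 37.5 FPKM (SD, n = 2) in ANBL6, and GAPDH, the dehydrogenase of the chain's middle step, at 2388 ± 36.8 in ARP1. The least of the enzymes in each model were below 5 FPKM on the same scale: HK1 in ANBL6 and RPMI8226, ENO2 in ANBL6BR, PFKP in ARP1 and HK2 in U266.

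Hexokinases carry out the first step of glycolysis. HK1 was at 0 and 0 FPKM in ANBL6, 2.6 and 3.18 in ANBL6BR, 1.09 and 1.04 in ARP1, 0.0153 and 0.0074 in RPMI8226 and 5.11 and 5.64 in U266 with DMSO. HK2, the hexokinase that HIF1 can raise, was at 13.3 and 14.3 FPKM in ANBL6, 9.08 and 7.95 in ANBL6BR, 5.33 and 4.57 in ARP1, 10.02 and 9.95 in RPMI8226 and 1.61 and 1.9 in U266. By merged length HK1 made up 86.9% of the hexokinase level in U266, 42.4% in ANBL6BR, 31.9% in ARP1, 0.245% in RPMI8226 and 0 in ANBL6, as means of 2 libraries. ANBL6 and RPMI8226 thus carried almost only HK2, and U266 mainly HK1. The 0 of HK1 in ANBL6 allows up to 3 fragments per library, for counting error only. Phosphofructokinase commits sugar to glycolysis. Its platelet form PFKP was at 15.8 and 15.9 FPKM in ANBL6, 0.304 and 0.173 in ANBL6BR, 0 and 0.0184 in ARP1, 15 and 14.5 in RPMI8226 and 17.9 and 18.9 in U266, near 0 in ANBL6BR and ARP1 and well above it in the other 3 models. By merged length PFKM made up 68.4% of the phosphofructokinase level in ARP1, where PFKP was 0.0473%.

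SLC2A1 and SLC2A3 encode the glucose transporters GLUT1 and GLUT3. SLC2A1 was at 28.4 and 27.7 FPKM in ANBL6, 6.13 and 9.2 in ANBL6BR, 4.11 and 3.29 in ARP1, 13.6 and 14.1 in RPMI8226 and 1.15 and 1.59 in U266 with DMSO, highest in ANBL6. SLC2A3 was at 0 and 0 FPKM in ANBL6, 3.45 and 5.24 in ANBL6BR, 5.84 and 4.55 in ARP1, 0.674 and 0.729 in RPMI8226 and 0.00919 and 0.00409 in U266, so ARP1 and ANBL6BR held it, RPMI8226 held little and ANBL6 and U266 next to none. By merged length SLC2A3 made up 59.3% of the summed SLC2A1 and SLC2A3 level in ARP1 and 37% in ANBL6BR. PGAM1 and HIF1A also set the models apart. PGAM1 was at 18 and 19.8 FPKM in ANBL6, 13.4 and 12.9 in ANBL6BR, 263 and 232 in ARP1, 138 and 144 in RPMI8226 and 199 and 186 in U266, with every library of the ANBL6 pair below every library of the other 3 models. HIF1A was at 5.88 and 5.52 FPKM in ANBL6, 4.36 and 4.73 in ANBL6BR, 0.297 and 0.465 in ARP1, 0.493 and 0.451 in RPMI8226 and 2.25 and 2.41 in U266. The order ran from the ANBL6 pair through U266 to RPMI8226 and ARP1, and the levels of the last pair overlapped and were below 1 FPKM with DMSO. EGLN3, a prolyl hydroxylase that HIF1 itself raises, was at 2.88 and 3.09 FPKM in ANBL6, 0 and 0 in ANBL6BR, 0 and 0 in ARP1, 1.72 and 1.55 in RPMI8226 and 0 and 0.0113 in U266, at 0 in ANBL6BR and ARP1.

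**Figure D1:**
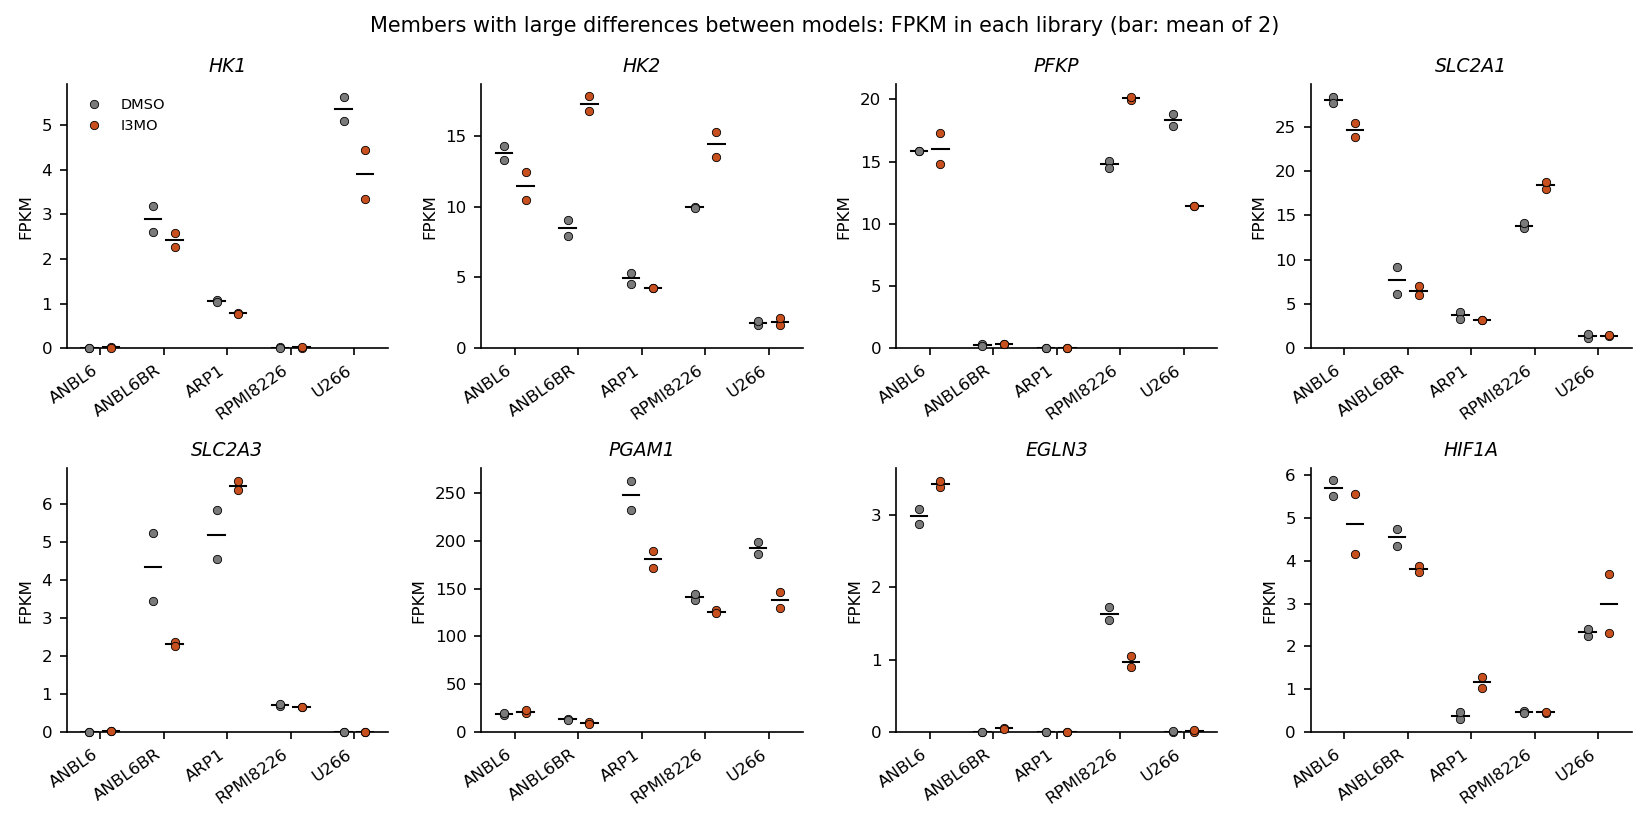
FPKM of HK1, HK2, PFKP, SLC2A1, SLC2A3, PGAM1, EGLN3 and HIF1A in the 5 models, on linear axes that start at 0; each point is 1 library (grey DMSO, orange I3MO) and each bar the mean of 2. HK1 reads 0 in ANBL6 and is highest in U266, PFKP is near 0 in ANBL6BR and ARP1, and SLC2A3 stands out in ARP1 and ANBL6BR.

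Both forms of ANBL6 carry the same cell line label, and with DMSO they differed in many members. Over all tested genes, mean levels with DMSO correlated at r = 0.815 between them and at 0.831 between ANBL6 and RPMI8226. Across all pairs of models r lay from 0.685 (ANBL6 and U266) to 0.839 (ARP1 and RPMI8226). The shared origin of the ANBL6 pair was not tested. Of 38 tested members 23 were called, 7 higher and 16 lower in ANBL6BR, beside 51.8% of all tested genes called, 27.0% higher and 24.8% lower. The count of all calls was thus near its background, and the share of members lower was above its own. Of the 17 enzymes 12 were lower and 3 higher in ANBL6BR, and their median log2 difference was -0.64 against 0 over all tested genes; the medians were -0.2 for the transporters and regulators and -0.08 for the other HIF1 targets. HK1 had 0 fragments in both ANBL6 libraries and 2144 in the sum of the ANBL6BR libraries, at least 716-fold higher. SLC2A3 had 0 and 1984 fragments, at least 663-fold higher in ANBL6BR. In 3 libraries, these ANBL6 libraries among them, SLC2A3 had 0 fragments and its named pseudogenes held at most 6. Their part in the bound was not tested. EGLN3 had 993 fragments in ANBL6 and 0 in ANBL6BR, at least 330-fold lower. These bounds set the group at 0 to 3 fragments over the group and cover counting error only. PFKP had 5518 fragments in ANBL6 and 83 in ANBL6BR, 66.3-fold lower (exact 95% interval 53.4 to 83.4, counting error only). P4HA2, a collagen prolyl hydroxylase subunit, had 677 and 1, 675-fold lower (121 to 26700). ENO2 had 215 and 6, 35.7-fold lower (16.2 to 98.5).

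Members present in both forms of ANBL6 differed as well. GLUT1's SLC2A1 was at 28.4 and 27.7 FPKM in ANBL6 and 6.13 and 9.2 in ANBL6BR, a log2 difference of -1.77 ± 0.15 (SE, limma adjusted p = 4.22e-07). SLC16A3, encoding the lactate exporter MCT4, was at 7.67 and 7.25 FPKM and 0.85 and 0.817, a log2 difference of -2.21 ± 0.09 (SE, limma adjusted p = 4.59e-10). PGK1, phosphoglycerate kinase, was at 283 and 275 FPKM and 103 and 113, a log2 difference of -1.37 ± 0.10 (SE, limma adjusted p = 1.53e-07). All 3 were lower in both ANBL6BR libraries than in both ANBL6 libraries. In the opposite direction NDRG1, a stress-responsive gene that HIF1 raises, was at 0.738 and 0.656 FPKM in ANBL6 and 10.04 and 7.23 in ANBL6BR, a log2 difference of 2.49 ± 0.11 (SE, limma adjusted p = 1.19e-09). VEGFA, the vascular growth factor, was at 1.7 and 1.96 FPKM and 6.49 and 6.57, a log2 difference of 1.41 ± 0.07 (SE, limma adjusted p = 5.02e-09). ALDOC was at 2.18 and 2.18 FPKM and 6.31 and 6.63, a log2 difference of 1.23 ± 0.08 (SE, limma adjusted p = 2.25e-08). The members higher in ANBL6BR thus crossed classes: the enzymes HK1, ALDOA and ALDOC, the transporter SLC2A3, the regulator PFKFB3 and the HIF1 targets VEGFA and NDRG1. PKM lost its call here without ANBL6BR DMSO replicate 1 (log2 change -0.23, 0.0772). PFKFB3 lost its call here without ANBL6 DMSO replicate 2 (0.0826) or ANBL6BR DMSO replicate 1 (0.0845). The log2 difference of ALDOA, 0.76, was 0.45 without ANBL6BR DMSO replicate 2, and that of PKM, -0.62, was -1.01 without the same library. The 2 ANBL6BR libraries with DMSO differed from each other in several members: GAPDH was at 103 and 171 FPKM, ALDOA at 99.7 and 154, PKM at 65.5 and 113 and ADM at 1.18 and 4.57.

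By calls, I3MO lowered more glycolytic enzymes than it raised in ANBL6BR, ARP1 and U266, and few of them were called in ANBL6 and RPMI8226. In ANBL6, 4 of 38 members were called, 3 higher and 1 lower, beside 7.97% of all tested genes (4.1% higher, 3.87% lower). In ANBL6BR, 15 were called, 1 higher and 14 lower, beside 18.4% (10.0% higher, 8.4% lower). In ARP1, 21 were called, 6 higher and 15 lower, beside 37.0% (23.1% higher, 13.9% lower). In RPMI8226, 12 were called, 5 higher and 7 lower, beside 14.8% (6.19% higher, 8.62% lower). In U266, 15 were called, 2 higher and 13 lower, beside 26.2% (10.5% higher, 15.8% lower). The shares of members lower were above those backgrounds in ANBL6BR, ARP1, RPMI8226 and U266, and the 4 calls in ANBL6 were near theirs. The shares of members higher, 2.63% in ANBL6BR, 15.8% in ARP1 and 5.26% in U266, were below those backgrounds, and the 13.2% in RPMI8226 was above. The I3MO response of ANBL6 rests on the libraries with more genes above 0. In every call of a member the 2 I3MO libraries did not overlap the 2 DMSO libraries. This was read only in members already called, so it lends the calls no support. With median-ratio scaling the share of all called genes that were higher went from 62.5% to 40.1% in ARP1, where members went from 6 higher and 15 lower to 5 and 19, and from 51.4% to 36.5% in ANBL6, where members went from 3 and 1 to 1 and 1.

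**Figure D2:**
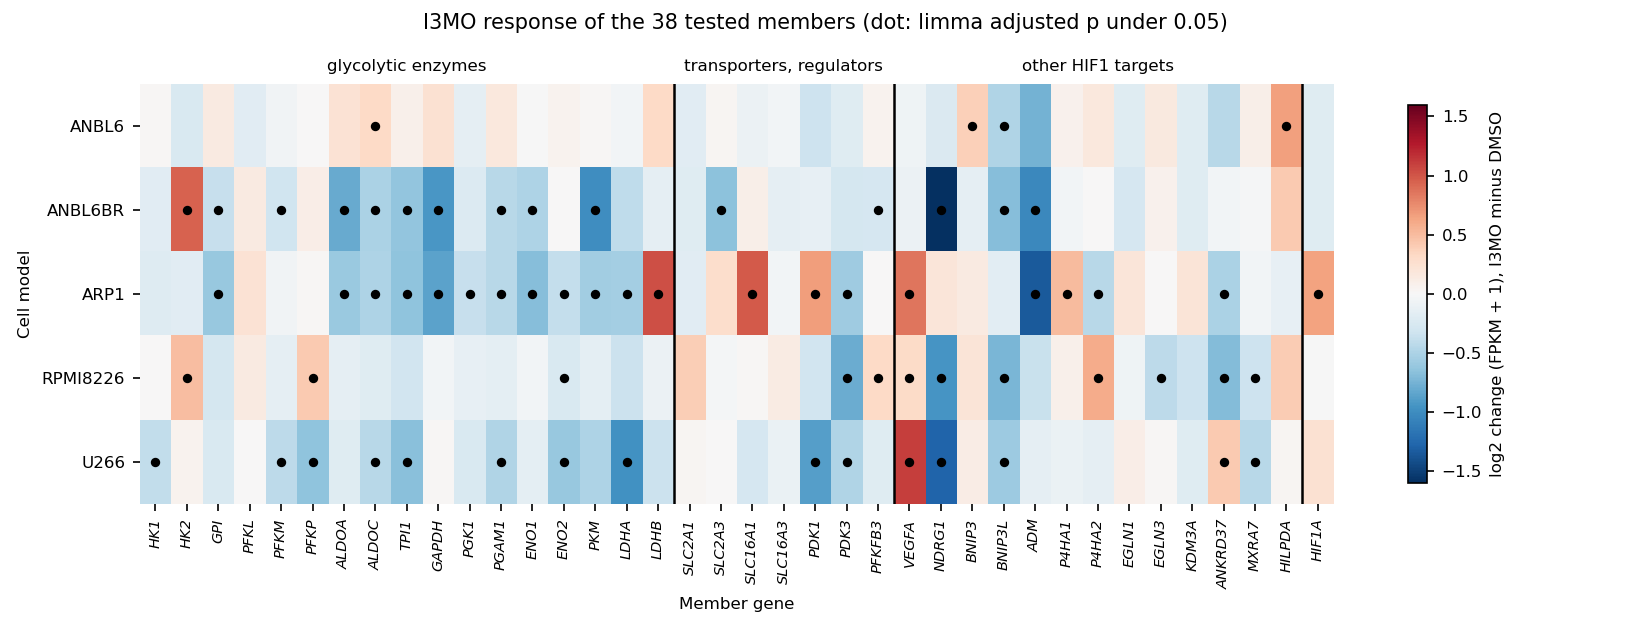
Heat map of the log2 change with I3MO on the log2(FPKM + 1) scale, with the 38 tested members in columns grouped by class and the 5 models in rows; a dot marks a member called at a limma adjusted p under 0.05. Dots on lower values gather among the enzymes in the rows of ANBL6BR (9 of 17), ARP1 (11) and U266 (8).

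The enzymes and the other HIF1 targets moved to different extents in the same models. Enzymes lower with I3MO were 52.9% of the 17 in ANBL6BR, 64.7% in ARP1, 47.1% in U266, 5.88% in RPMI8226 and 0 in ANBL6. Of the 13 other HIF1 targets 23.1% were lower in each of ANBL6BR, ARP1 and U266, 38.5% in RPMI8226 and 7.69% in ANBL6. The share lower was thus greater among the enzymes in ANBL6BR, ARP1 and U266 and among the other HIF1 targets in RPMI8226. In ANBL6 it rested on 1 call, that of BNIP3L. The median log2 change of the enzymes was -0.37 in ANBL6BR, -0.45 in ARP1, -0.39 in U266, -0.14 in RPMI8226 and 0.02 in ANBL6. For the other HIF1 targets it was -0.09 in ANBL6BR, 0 in ARP1, -0.11 in U266, -0.33 in RPMI8226 and -0.07 in ANBL6, and for the transporters and regulators -0.19, 0, -0.19, 0.02 and -0.1 in the same order. Over all tested genes the medians lay between -0.02 and 0.03. So the enzyme median was below that of the other HIF1 targets in ANBL6BR, ARP1 and U266 and above it in RPMI8226 and ANBL6. In RPMI8226 that order turned when genes had to reach 1 FPKM in 10 libraries (an enzyme minus HIF1 target median of -0.07 in place of 0.19). Only 9 of the 13 other HIF1 targets were still tested there. Over all settings the HIF1 target median lay on both sides of 0 in ARP1 (-0.08 to 0.14) and U266 (-0.20 to 0.03), and the enzyme median below 0 in ANBL6BR (-0.50 to -0.29), ARP1 (-0.72 to -0.36) and U266 (-0.50 to -0.28). The enzyme median was also below 0 in every setting in RPMI8226 (-0.15 to -0.08), where 13 of the 17 enzymes had a negative change. In ANBL6 it lay on both sides of 0 (-0.01 to 0.1). No test of the difference between the classes was made. As a share of the library's fragments on protein-coding genes, the 17 enzymes went from 2.79% and 2.82% with DMSO to 1.84% and 2.02% with I3MO in ARP1. The share went from 1.57% and 2.12% to 1.24% and 1.12% in ANBL6BR, and from 1.83% and 1.87% to 1.47% and 1.5% in U266. In RPMI8226 the share was 2.87% and 2.94% with DMSO and 2.68% with I3MO in both libraries, and in ANBL6 2.37% and 2.36% with DMSO and 2.36% and 2.53% with I3MO, where the groups met.

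**Figure D3:**
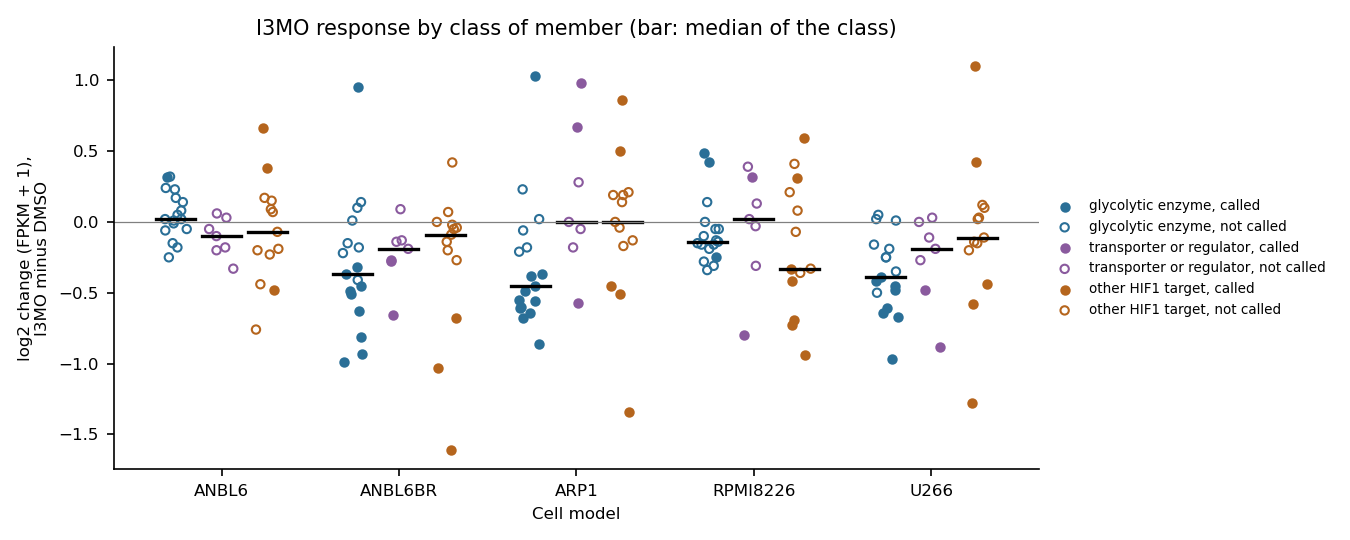
Log2 change with I3MO of each tested member on the log2(FPKM + 1) scale, by class and model; filled points were called at a limma adjusted p under 0.05 and bars are class medians. The enzyme bars lie at -0.37 in ANBL6BR, -0.45 in ARP1 and -0.39 in U266, against -0.09, 0 and -0.11 for the other HIF1 targets.

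The first steps of glycolysis, which spend ATP and split the sugar, gave mixed changes. HK2 in ANBL6BR rose from 9.08 and 7.95 FPKM with DMSO to 16.8 and 17.9 with I3MO, a log2 change of 0.95 ± 0.11 (SE, limma adjusted p = 0.000161). HK2 also rose from 10.02 and 9.95 FPKM with DMSO to 13.6 and 15.3 with I3MO, a log2 change of 0.49 ± 0.11 (SE, limma adjusted p = 0.0105) in RPMI8226, and its log2 changes elsewhere, -0.25 in ANBL6, -0.18 in ARP1 and 0.05 in U266, were not called. HK1 in U266 fell from 5.11 and 5.64 FPKM with DMSO to 3.35 and 4.45 with I3MO, a log2 change of -0.39 ± 0.10 (SE, limma adjusted p = 0.013). The HK1 share of the hexokinase level by merged length was 38.3% and 46.5% with DMSO and 21.6% and 25% with I3MO in ANBL6BR, where only HK2 of the pair was called. PFKP, in contrast, changed in opposite directions in 2 models. In U266 it fell from 17.9 and 18.9 FPKM with DMSO to 11.4 and 11.4 with I3MO, a log2 change of -0.64 ± 0.07 (SE, limma adjusted p = 4.58e-05). In RPMI8226 it rose from 15 and 14.5 FPKM with DMSO to 19.99 and 20.2 with I3MO, a log2 change of 0.42 ± 0.07 (SE, limma adjusted p = 0.00225). By merged length the PFKP share of the phosphofructokinases was 38.6% and 39.5% with DMSO and 31.2% and 31.5% with I3MO in U266 and 33.1% and 34.8% with DMSO and 40.6% and 41.3% with I3MO in RPMI8226, so the libraries of the 2 treatments stood apart in both. PFKM, the muscle form, fell in ANBL6BR (-0.32, limma adjusted p = 0.0329) and in U266 (-0.42, limma adjusted p = 0.00566), and PFKL, the liver form, was called in no model. GPI, glucose phosphate isomerase, fell in ANBL6BR (-0.37, limma adjusted p = 0.0423) and ARP1 (-0.61, limma adjusted p = 0.00145). HK2 in RPMI8226 lost its call without DMSO replicate 1 (0.055), DMSO replicate 2 (0.0603) or I3MO replicate 2 (0.1). HK1 in U266 lost its call without DMSO replicate 2 (0.103) or I3MO replicate 1 (log2 change -0.22, 0.105). PFKM in ANBL6BR lost its call without DMSO replicate 2 (log2 change -0.18, 0.248), I3MO replicate 1 (0.119) or I3MO replicate 2 (0.142). The direction of these changes held without each of those libraries. PFKM in U266 lost its call without DMSO replicate 2 (0.0531). GPI in ANBL6BR lost its call without DMSO replicate 2 (0.212) or I3MO replicate 2 (log2 change -0.20, 0.39).

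Aldolase and triosephosphate isomerase, which make the 3-carbon sugars, fell in several models. ALDOA, the main aldolase, fell in ANBL6BR from 99.7 and 154 FPKM to 75.8 and 65 (-0.81, limma adjusted p = 0.00347) and in ARP1 from 90.3 and 89.8 to 55.5 and 62.5 (-0.60, limma adjusted p = 0.00908). ALDOC, the form best known from brain, fell in 3 models and rose in 1. By merged length ALDOA made up at least 94% of the aldolase level in every library. In ANBL6BR it fell from 6.31 and 6.63 FPKM with DMSO to 4.38 and 4.11 with I3MO, a log2 change of -0.51 ± 0.08 (SE, limma adjusted p = 0.000652). In ARP1 it fell from 5.64 and 5.85 FPKM with DMSO to 3.51 and 4.14 with I3MO, a log2 change of -0.49 ± 0.08 (SE, limma adjusted p = 0.000375). In U266, the model with the most ALDOC, it fell from 10.2 and 10.8 FPKM with DMSO to 7.73 and 7.18 with I3MO, a log2 change of -0.45 ± 0.08 (SE, limma adjusted p = 0.000767). ANBL6 went the other way. There it rose from 2.18 and 2.18 FPKM with DMSO to 3.05 and 2.9 with I3MO, a log2 change of 0.32 ± 0.08 (SE, limma adjusted p = 0.022). TPI1 fell in the same 3 models as ALDOC. In ANBL6BR it fell from 36.5 and 34 FPKM with DMSO to 22.6 and 22.3 with I3MO, a log2 change of -0.63 ± 0.11 (SE, limma adjusted p = 0.00219). ARP1 gave a like change, in which TPI1 fell from 180.5 and 204 FPKM with DMSO to 113 and 134 with I3MO, a log2 change of -0.64 ± 0.11 (SE, limma adjusted p = 0.000827). In U266 it fell from 50.7 and 48.5 FPKM with DMSO to 31.7 and 29.96 with I3MO, a log2 change of -0.67 ± 0.11 (SE, limma adjusted p = 0.000734). The log2 changes of TPI1 in the remaining models, 0.08 in ANBL6 and -0.31 in RPMI8226, were not called. ALDOA in ARP1 lost its call without I3MO replicate 1 (0.0787). ALDOC in ANBL6 lost its call without DMSO replicate 1 (0.109), DMSO replicate 2 (0.13), I3MO replicate 1 (0.0801) or I3MO replicate 2 (0.0825). Without ANBL6BR DMSO replicate 2, the library with the higher ALDOA level, the log2 change of ALDOA in ANBL6BR was -0.50 and was still called.

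The later steps regain ATP and end in pyruvate. GAPDH fell in 2 models. In ANBL6BR it fell from 103 and 171 FPKM with DMSO to 71.9 and 66.3 with I3MO, a log2 change of -0.93 ± 0.17 (SE, limma adjusted p = 0.00248). In ARP1 it fell from 522 and 511 FPKM with DMSO to 276 and 294 with I3MO, a log2 change of -0.86 ± 0.17 (SE, limma adjusted p = 0.00187). In the other models its log2 changes were 0.24 in ANBL6, -0.05 in RPMI8226 and 0.02 in U266. At most 1.91% of the fragments of GAPDH and its 62 named pseudogenes lay on the pseudogenes. PGAM1, which moves the phosphate on the 3-carbon acid, fell in 3 models. In ANBL6BR it fell from 13.4 and 12.9 FPKM with DMSO to 10.1 and 8.67 with I3MO, a log2 change of -0.45 ± 0.10 (SE, limma adjusted p = 0.00861). PGAM1 in ARP1 fell from 263 and 232 FPKM with DMSO to 172 and 189.6 with I3MO, a log2 change of -0.45 ± 0.10 (SE, limma adjusted p = 0.00413). In U266 it fell from 199 and 186 FPKM with DMSO to 129.5 and 146 with I3MO, a log2 change of -0.48 ± 0.10 (SE, limma adjusted p = 0.00361). The fall had about the same log2 size in models that differ widely in the level of PGAM1. ENO1 fell in ANBL6BR (-0.49, limma adjusted p = 0.00852) and ARP1 (-0.68, limma adjusted p = 0.000535), and PGK1 in ARP1 (-0.37, limma adjusted p = 0.0134). ENO2, the enolase best known from neurons, fell in 3 models from low levels. In U266 it fell from 6.03 and 6.3 FPKM with DMSO to 3.75 and 3.62 with I3MO, a log2 change of -0.61 ± 0.07 (SE, limma adjusted p = 2.74e-05). In ARP1 it fell from 0.672 and 0.573 FPKM with DMSO to 0.212 and 0.275 with I3MO, a log2 change of -0.38 ± 0.07 (SE, limma adjusted p = 0.000799). In RPMI8226 it fell from 1.93 and 2.23 FPKM with DMSO to 1.58 and 1.58 with I3MO, a log2 change of -0.25 ± 0.07 (SE, limma adjusted p = 0.0226). By merged length ENO2 made up 2.88% and 2.99% with DMSO and 1.97% and 1.99% with I3MO of the enolases in U266 and at most 0.628% in any library of the other models. PKM, pyruvate kinase, is the last enzyme of the chain. In ANBL6BR it fell from 65.5 and 113 FPKM with DMSO to 46.2 and 39.6 with I3MO, a log2 change of -0.99 ± 0.18 (SE, limma adjusted p = 0.00232). PKM in ARP1 fell from 160.4 and 159.5 FPKM with DMSO to 104 and 112 with I3MO, a log2 change of -0.56 ± 0.18 (SE, limma adjusted p = 0.0255). In U266 PKM was at 132 and 144 FPKM with DMSO and 97 and 97.4 with I3MO, a log2 change of -0.50 that was not called (limma adjusted p = 0.0563).

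Single libraries bore on several of these calls of the lower enzymes. PGAM1 in ANBL6BR lost its call without I3MO replicate 2 (0.103). ENO1 in ANBL6BR lost its call without I3MO replicate 2 (0.0793). PGK1 in ARP1 lost its call without DMSO replicate 1 (0.0816) or I3MO replicate 1 (0.123). Each of these members kept its direction. ENO2 in RPMI8226 lost its call without DMSO replicate 2 (0.199), I3MO replicate 1 (0.113) or I3MO replicate 2 (0.105). PKM in ARP1 lost its call without DMSO replicate 1 (0.101), DMSO replicate 2 (0.0799), I3MO replicate 1 (0.135) or I3MO replicate 2 (0.0563). The ANBL6BR DMSO library that was higher in GAPDH and PKM, replicate 2, moved the size of those changes by over 1.5 times: without it the log2 change in ANBL6BR was -0.57 for GAPDH, -0.60 for PKM and -0.29 for ENO1, all 3 still called.

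Lactate dehydrogenase is a tetramer of the products of LDHA, a HIF1 target, and LDHB. LDHA in U266 fell from 43.8 and 42.6 FPKM with DMSO to 17.7 and 26.3 with I3MO, a log2 change of -0.97 ± 0.15 (SE, limma adjusted p = 0.000346). LDHA in ARP1 fell from 82.4 and 78.8 FPKM with DMSO to 52.8 and 56.4 with I3MO, a log2 change of -0.55 ± 0.15 (SE, limma adjusted p = 0.0101). LDHB, by contrast, rose from 95.4 and 162 FPKM with DMSO to 241 and 269 with I3MO, a log2 change of 1.03 ± 0.20 (SE, limma adjusted p = 0.00151) in ARP1, although its 2 DMSO libraries there stood far apart. By merged length the LDHA share of the pair in ARP1 was 45.8% and 60.1% with DMSO and 26.8% and 27.7% with I3MO, and in U266 65.1% and 66.4% with DMSO and 54% and 56.5% with I3MO. The I3MO libraries had the lower LDHA share in both models. The share was also lower with I3MO in both libraries of ANBL6 (40.9% and 41.1% with DMSO and 34% and 35.7% with I3MO), ANBL6BR (61.5% and 62.2% with DMSO and 55.7% and 59.1% with I3MO) and RPMI8226 (38.2% and 38.3% with DMSO and 33.9% and 34.6% with I3MO), where neither gene was called; the shares were not tested. LDHA in ARP1 lost its call without DMSO replicate 1 (0.0635) or I3MO replicate 1 (0.0723). Without DMSO replicate 1 the log2 change of LDHB in ARP1 was 0.65, still called.

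**Figure D4:**
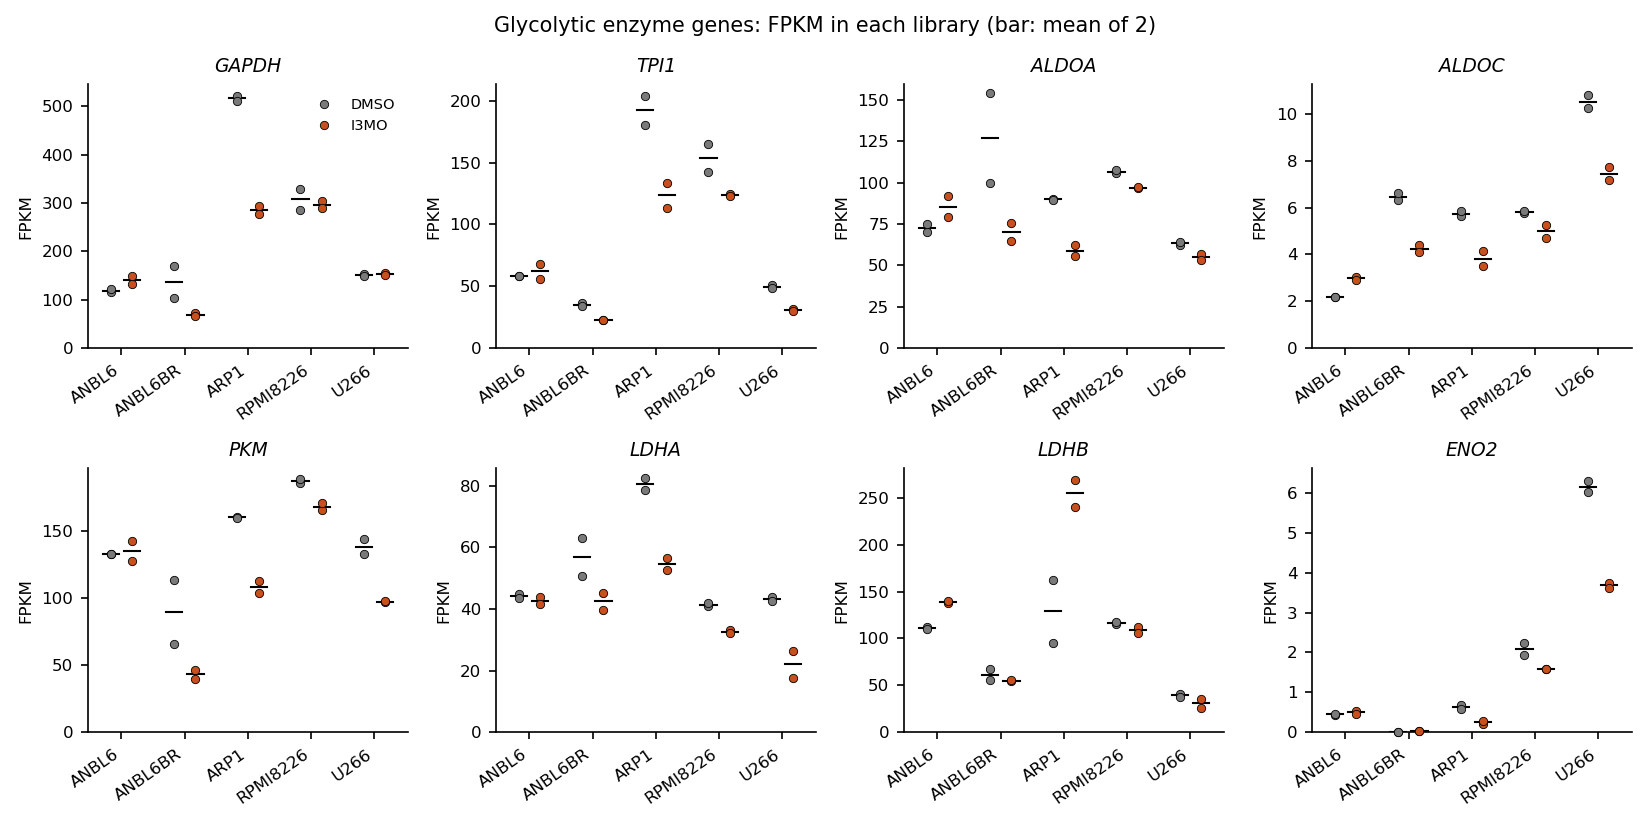
FPKM of GAPDH, TPI1, ALDOA, ALDOC, PKM, LDHA, LDHB and ENO2 in the 5 models, on linear axes that start at 0; each point is 1 library (grey DMSO, orange I3MO) and each bar the mean of 2. In ARP1 the I3MO points lie below the DMSO points in every panel other than LDHB, where they lie above.

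Transporters moved in single models. SLC16A1, encoding MCT1, which carries lactate and pyruvate in either direction, rose from 1.19 and 1.86 FPKM with DMSO to 4.11 and 3.75 with I3MO, a log2 change of 0.98 ± 0.11 (SE, limma adjusted p = 3.85e-05) in ARP1. SLC2A3 fell from 3.45 and 5.24 FPKM with DMSO to 2.38 and 2.27 with I3MO, a log2 change of -0.66 ± 0.13 (SE, limma adjusted p = 0.00357) in ANBL6BR. The SLC2A3 level of ARP1, 5.84 and 4.55 FPKM with DMSO and 6.36 and 6.6 with I3MO, did not pass the test (limma adjusted p = 0.11). SLC2A1 and SLC16A3 were called in none of the 5 models. In RPMI8226 SLC2A1 was at 13.6 and 14.1 FPKM with DMSO and 18 and 18.8 with I3MO (log2 change 0.39, limma adjusted p = 0.105). Without ANBL6BR DMSO replicate 2 the log2 change of SLC2A3 in ANBL6BR was -0.42, still called.

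Pyruvate dehydrogenase kinases switch off pyruvate dehydrogenase and so hold back the use of pyruvate in the mitochondria. PDK3 fell in the 3 models given 10 µM. In RPMI8226 it fell from 4.8 and 4.9 FPKM with DMSO to 2.54 and 2.2 with I3MO, a log2 change of -0.80 ± 0.16 (SE, limma adjusted p = 0.00519). In ARP1 it fell from 4.31 and 3.97 FPKM with DMSO to 3.29 and 1.81 with I3MO, a log2 change of -0.57 ± 0.16 (SE, limma adjusted p = 0.0156). In U266 it fell from 2.2 and 1.66 FPKM with DMSO to 1.23 and 0.952 with I3MO, a log2 change of -0.48 ± 0.16 (SE, limma adjusted p = 0.0433). Its log2 changes at 5 µM, -0.20 in ANBL6 and -0.28 in ANBL6BR, were not called. PDK1, a HIF1 target, went opposite ways. In U266 PDK1 fell from 1.89 and 1.88 FPKM with DMSO to 0.657 and 0.475 with I3MO, a log2 change of -0.88 ± 0.18 (SE, limma adjusted p = 0.0025). In ARP1 PDK1 rose from 0.618 and 0.95 FPKM with DMSO to 1.9 and 1.77 with I3MO, a log2 change of 0.67 ± 0.18 (SE, limma adjusted p = 0.00964). By merged length the PDK1 share of the summed PDK1 and PDK3 level was 20.8% and 30.5% with DMSO and 51.4% and 64.2% with I3MO in ARP1, and 61.2% and 67.5% with DMSO and 47.8% and 49.6% with I3MO in U266. The length in use for PDK3, 4101 bases, was shorter than its merged exons in GENCODE 29, 4951 bases, so the size of these shares is uncertain, whereas their order between libraries of a model does not depend on the length. Thus in ARP1 the balance moved toward PDK1 and in U266 toward PDK3, with no overlap of libraries. PFKFB3 makes the sugar phosphate that activates phosphofructokinase, and its level was low outside ARP1. In RPMI8226 it rose from 0.97 and 0.785 FPKM with DMSO to 1.31 and 1.35 with I3MO, a log2 change of 0.32 ± 0.08 (SE, limma adjusted p = 0.0143). In ANBL6BR it fell from 1.17 and 0.992 FPKM with DMSO to 0.703 and 0.748 with I3MO, a log2 change of -0.27 ± 0.08 (SE, limma adjusted p = 0.0266). PDK3 in ARP1 lost its call without DMSO replicate 1 (0.0915) or I3MO replicate 2 (log2 change -0.26, 0.17). PDK3 in U266 lost its call without DMSO replicate 1 (0.273), I3MO replicate 1 (0.0538) or I3MO replicate 2 (0.191). PDK1 in ARP1 lost its call without DMSO replicate 1 (0.0924) or I3MO replicate 1 (0.0627). In all of these cases the sign of the change stayed as it was. PFKFB3 in RPMI8226 lost its call without DMSO replicate 2 (0.135), I3MO replicate 1 (0.0693) or I3MO replicate 2 (0.0881). PFKFB3 in ANBL6BR lost its call without DMSO replicate 1 (0.127), I3MO replicate 1 (0.129) or I3MO replicate 2 (0.0953). Without I3MO replicate 1 the log2 change of PDK3 in ARP1 was -0.87.

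Among the other HIF1 targets, NDRG1 gave the largest fall on the log2 scale. In ANBL6BR NDRG1 fell from 10.04 and 7.23 FPKM with DMSO to 2.16 and 2.1 with I3MO, a log2 change of -1.61 ± 0.11 (SE, limma adjusted p = 5.45e-06). In U266 NDRG1 fell from 4.73 and 4.64 FPKM with DMSO to 1.19 and 1.5 with I3MO, a log2 change of -1.28 ± 0.11 (SE, limma adjusted p = 5.13e-06). In RPMI8226 NDRG1 fell from 1.65 and 1.45 FPKM with DMSO to 0.328 and 0.336 with I3MO, a log2 change of -0.94 ± 0.11 (SE, limma adjusted p = 0.000145). The remaining log2 changes of NDRG1, -0.23 in ANBL6 and 0.19 in ARP1, were not called and had opposite signs. BNIP3L (NIX), a receptor for the removal of mitochondria, fell in 4 models, more than any other member. In RPMI8226 BNIP3L fell from 1.2 and 1.4 FPKM with DMSO to 0.371 and 0.409 with I3MO, a log2 change of -0.73 ± 0.12 (SE, limma adjusted p = 0.00183). In ANBL6BR BNIP3L fell from 3.73 and 3.44 FPKM with DMSO to 1.82 and 1.91 with I3MO, a log2 change of -0.68 ± 0.12 (SE, limma adjusted p = 0.00267). In U266 BNIP3L fell from 2.42 and 2.54 FPKM with DMSO to 1.64 and 1.06 with I3MO, a log2 change of -0.58 ± 0.12 (SE, limma adjusted p = 0.00418). In ANBL6 BNIP3L fell from 3.22 and 2.74 FPKM with DMSO to 2.06 and 1.67 with I3MO, a log2 change of -0.48 ± 0.12 (SE, limma adjusted p = 0.0359). ARP1, whose BNIP3L level was the lowest with DMSO, gave 0.683 and 0.987 FPKM with DMSO and 0.725 and 0.536 with I3MO and was not called (log2 change -0.17, limma adjusted p = 0.341). Its relative BNIP3, also a mitophagy receptor, was called in 1 model, where it went up. BNIP3 in ANBL6 rose from 2.98 and 2.67 FPKM with DMSO to 3.72 and 4.25 with I3MO, a log2 change of 0.38 ± 0.10 (SE, limma adjusted p = 0.0398). Its other log2 changes, -0.14 in ANBL6BR, 0.14 in ARP1, 0.21 in RPMI8226 and 0.12 in U266, were not called. BNIP3 has 39 named pseudogenes; in 1 library, ARP1 with DMSO replicate 1, the gene had 0 fragments and the pseudogenes 14. BNIP3L in ANBL6 lost its call without DMSO replicate 1 (0.217), DMSO replicate 2 (0.0953) or I3MO replicate 2 (0.268). BNIP3 in ANBL6 lost its call without DMSO replicate 1 (0.0969), DMSO replicate 2 (0.25) or I3MO replicate 2 (0.275).

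VEGFA moved against the falls and rose in the 3 models given 10 µM. In U266 VEGFA rose from 2.35 and 2.2 FPKM with DMSO to 5.96 and 6.11 with I3MO, a log2 change of 1.10 ± 0.07 (SE, limma adjusted p = 5.29e-07). In ARP1 VEGFA rose from 0.993 and 0.97 FPKM with DMSO to 2.62 and 2.57 with I3MO, a log2 change of 0.86 ± 0.07 (SE, limma adjusted p = 7.03e-06). In RPMI8226 VEGFA rose from 1.5 and 1.46 FPKM with DMSO to 2.04 and 2.12 with I3MO, a log2 change of 0.31 ± 0.07 (SE, limma adjusted p = 0.0127). In the ANBL6 pair, at 5 µM, its log2 changes were -0.07 in ANBL6 and -0.09 in ANBL6BR and were not called. ADM, adrenomedullin, is a secreted vasodilator peptide. In ARP1, where it was highest, ADM fell from 9.28 and 8.18 FPKM with DMSO to 2.49 and 3.22 with I3MO, a log2 change of -1.34 ± 0.31 (SE, limma adjusted p = 0.00481). In ANBL6BR ADM fell from 1.18 and 4.57 FPKM with DMSO to 0.644 and 0.767 with I3MO, a log2 change of -1.03 ± 0.31 (SE, limma adjusted p = 0.0353). In ANBL6 ADM was at 3.03 and 3.85 FPKM with DMSO and 1.61 and 1.6 with I3MO and was not called (log2 change -0.76, limma adjusted p = 0.158). ADM thus had a negative log2 change in each of the 5 models, past the threshold in 2. VEGFA in RPMI8226 lost its call without DMSO replicate 1 (0.0571), DMSO replicate 2 (0.0775), I3MO replicate 1 (0.061) or I3MO replicate 2 (0.0872). ADM in ANBL6BR lost its call without DMSO replicate 2 (log2 change -0.36, 0.254), I3MO replicate 1 (0.147) or I3MO replicate 2 (0.123). Without ANBL6BR DMSO replicate 1 the log2 change of ADM in ANBL6BR was -1.71.

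P4HA1 and P4HA2 encode catalytic subunits of collagen prolyl hydroxylase. P4HA2 in RPMI8226 rose from 1.12 and 1.16 FPKM with DMSO to 2.17 and 2.26 with I3MO, a log2 change of 0.59 ± 0.06 (SE, limma adjusted p = 5.14e-05). P4HA2 in ARP1 fell from 1.19 and 1.09 FPKM with DMSO to 0.579 and 0.546 with I3MO, a log2 change of -0.45 ± 0.06 (SE, limma adjusted p = 0.000148). P4HA1 rose in ARP1 (0.50, limma adjusted p = 0.0266), so the 2 subunits went opposite ways there. ANKRD37, a small ankyrin-repeat gene raised in hypoxia, was low in all models and changed in 3 of them. In RPMI8226 ANKRD37 fell from 1.32 and 1.09 FPKM with DMSO to 0.413 and 0.315 with I3MO, a log2 change of -0.69 ± 0.14 (SE, limma adjusted p = 0.00541). In ARP1 ANKRD37 fell from 1.5 and 2.46 FPKM with DMSO to 1.1 and 1.01 with I3MO, a log2 change of -0.51 ± 0.14 (SE, limma adjusted p = 0.0124). In U266 ANKRD37 rose from 1.21 and 1.11 FPKM with DMSO to 2.05 and 1.73 with I3MO, a log2 change of 0.42 ± 0.14 (SE, limma adjusted p = 0.0443). Of the exon bases of ANKRD37 35.2% are shared with other genes, and their part in its values was not tested. HILPDA encodes a lipid droplet protein. In ANBL6 HILPDA rose from 3.03 and 2.9 FPKM with DMSO to 5.12 and 5.41 with I3MO, a log2 change of 0.66 ± 0.14 (SE, limma adjusted p = 0.0138). MXRA7 fell in RPMI8226 (-0.33, limma adjusted p = 0.00622) and U266 (-0.44, limma adjusted p = 0.000382), and EGLN3 in RPMI8226 (-0.42, limma adjusted p = 0.000901). EGLN1, the main oxygen-sensing hydroxylase, and KDM3A, a histone demethylase, were called in no model. HIF1A rose in ARP1 from 0.297 and 0.465 FPKM with DMSO to 1.3 and 1.02 with I3MO (0.64, limma adjusted p = 0.00426), and its other log2 changes were -0.20 in ANBL6, -0.20 in ANBL6BR, -0.01 in RPMI8226 and 0.24 in U266. HIF1 activity is set mainly at the protein, which was not measured. P4HA1 in ARP1 lost its call without DMSO replicate 1 (log2 change 0.27, 0.277), I3MO replicate 1 (0.104) or I3MO replicate 2 (0.0847). ANKRD37 in RPMI8226 lost its call without DMSO replicate 1 (0.052). ANKRD37 in ARP1 lost its call without DMSO replicate 2 (log2 change -0.28, 0.135) or I3MO replicate 2 (0.0603). None of these changed sign without the library named. ANKRD37 in U266 lost its call without DMSO replicate 1 (0.114), DMSO replicate 2 (0.177), I3MO replicate 1 (0.182) or I3MO replicate 2 (0.0578). HILPDA in ANBL6 lost its call without DMSO replicate 1 (0.0669), DMSO replicate 2 (0.103) or I3MO replicate 2 (0.104). MXRA7 in RPMI8226 lost its call without DMSO replicate 1 (0.0569) or I3MO replicate 2 (0.0544). These changes kept their sign as well.

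**Figure D5:**
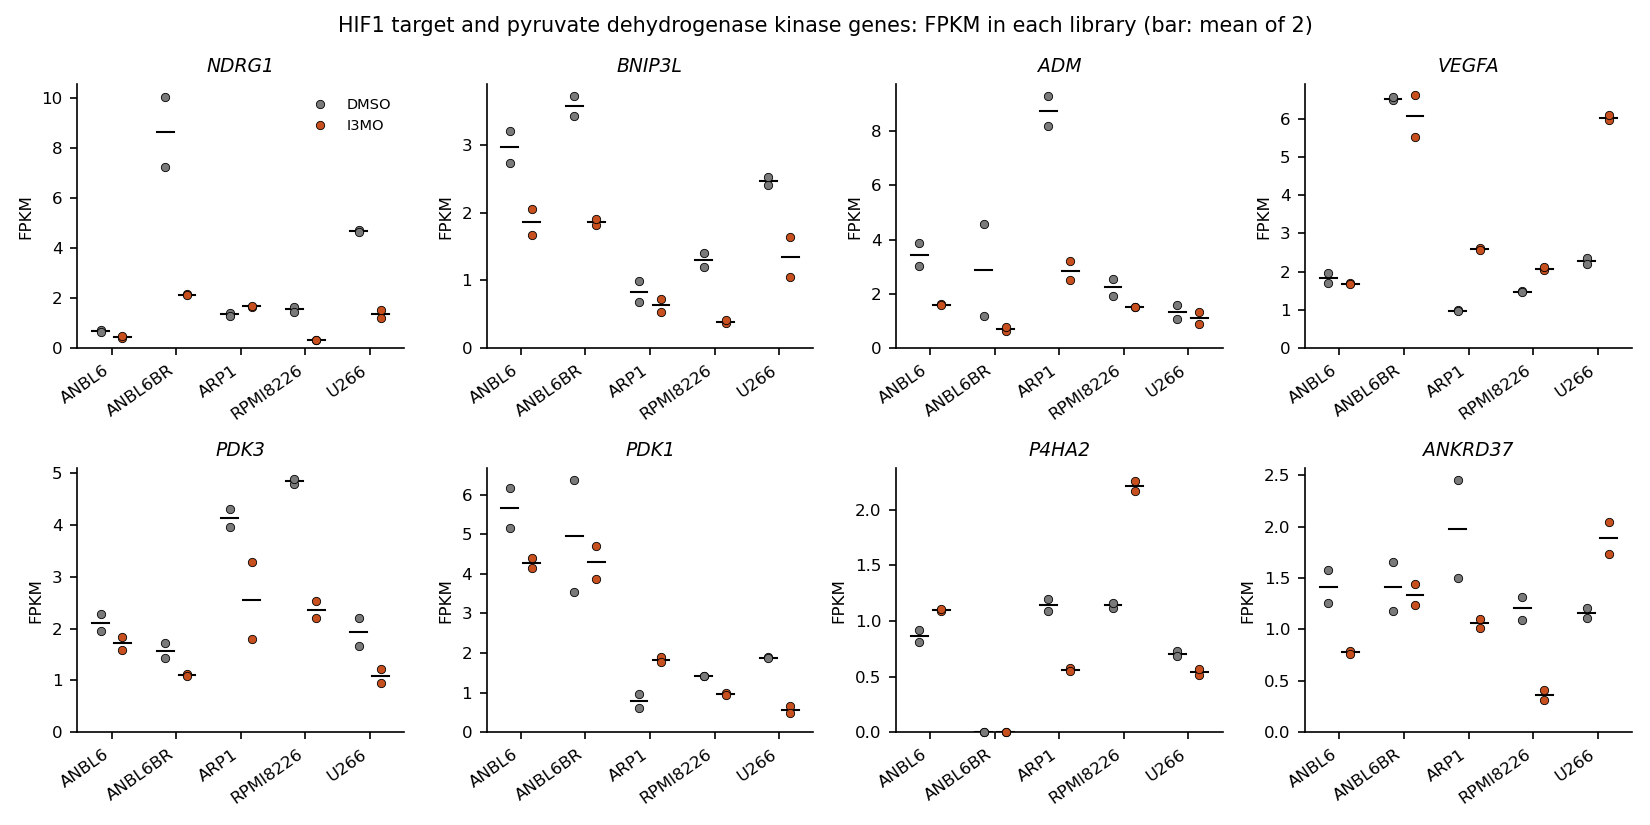
FPKM of NDRG1, BNIP3L, ADM, VEGFA, PDK3, PDK1, P4HA2 and ANKRD37 in the 5 models, on linear axes that start at 0; each point is 1 library (grey DMSO, orange I3MO) and each bar the mean of 2. NDRG1 and BNIP3L have their I3MO points below their DMSO points in ANBL6BR, RPMI8226 and U266, and VEGFA has its above in ARP1, RPMI8226 and U266.

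Set out by member, 33 of the 38 (86.8%) were called in at least 1 model, beside 64.2% of all tested genes, and 5 in none: PFKL, SLC2A1, SLC16A3, EGLN1 and KDM3A. Lower in at least 3 models were 7 (18.4%, beside 4.73% of all tested genes): ALDOC, TPI1, PGAM1, ENO2, PDK3, NDRG1 and BNIP3L. VEGFA was the 1 member higher in at least 3 (2.63%, beside 3.74%, near the background). Another 6, ALDOC again among them, were higher in some models and lower in others (15.8%, beside 5.9%): ALDOC, PFKP, PDK1, PFKFB3, P4HA2 and ANKRD37. None was called in all 5 models (0.682% of all tested genes were), and 10 were called in exactly 1 (26.3%, beside 38%). The joint test of equal I3MO responses in the 5 models called 25 of 38 members, beside 44.5% of all tested genes, and 16 with the replicate block. HK1, PFKL, PFKM, PGK1, SLC2A1, SLC16A3, PDK3, BNIP3, BNIP3L, ADM, P4HA1, EGLN1 and KDM3A were not called by it. The models were also taken as the replicates, 5 values against 5 with the model as a block. ANBL6 and ANBL6BR, which carry the same cell line label, count as 2 values there. In that comparison limma called 0 of 38 members and 0.0% of all genes tested. At an unadjusted p under 0.05 were 7 members (18.4% of 38) and 2651 genes (16.9% of all tested), so the members' share was near the background, and on log2 fragments per M limma called 99 genes and 0 members.

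The response of ANBL6BR differed from that of ANBL6, at the same dose of 5 µM, in 10 of 38 members, 1 higher and 9 lower, beside 8.47% of all tested genes, 4.14% higher and 4.33% lower. This comparison shares the DMSO libraries with the single responses and with ANBL6BR against ANBL6, so its values are set beside them and lend them no support. HK2 had a log2 change of -0.25 in ANBL6 and 0.95 in ANBL6BR, a difference of 1.19 ± 0.16 (SE, limma adjusted p = 0.00117). NDRG1 had -0.23 and -1.61, a difference of -1.38 ± 0.16 (SE, limma adjusted p = 0.000427). GAPDH had 0.24 and -0.93, a difference of -1.17 ± 0.24 (SE, limma adjusted p = 0.0126). Of the 9 members lower in this comparison, 6 were enzymes: ALDOA, ALDOC, TPI1, GAPDH, PGAM1 and PKM. ALDOC had 0.32 and -0.51, a difference of -0.83 ± 0.11 (SE, limma adjusted p = 0.000922), and was called in opposite directions in the 2 models. SLC2A3 (difference -0.69) was near 0 in ANBL6 with either treatment, 0 and 0 FPKM with DMSO and 0.0269 and 0.0157 with I3MO, so a fall could not be measured there. The calls of HK2, NDRG1 and ALDOC held without any 1 of the 8 libraries. SLC2A3 lost its call here without ANBL6 DMSO replicate 1 (0.0973), ANBL6 DMSO replicate 2 (0.0956), ANBL6 I3MO replicate 1 (0.0706), ANBL6 I3MO replicate 2 (0.0958), ANBL6BR I3MO replicate 1 (0.0793) or ANBL6BR I3MO replicate 2 (0.111). PKM lost its call here without ANBL6 DMSO replicate 1 (0.0841), ANBL6 DMSO replicate 2 (0.0814), ANBL6 I3MO replicate 2 (0.105) or ANBL6BR I3MO replicate 2 (0.111). Of the 7 members that lost their call without a library, 5 were enzymes. GAPDH lost its call here without ANBL6 DMSO replicate 1 (0.0508), ANBL6 I3MO replicate 2 (0.054) or ANBL6BR I3MO replicate 2 (0.0534). TPI1 lost its call here without ANBL6 DMSO replicate 1 (0.0621), ANBL6 DMSO replicate 2 (0.0583), ANBL6 I3MO replicate 2 (0.0691), ANBL6BR I3MO replicate 1 (0.0515) or ANBL6BR I3MO replicate 2 (0.0641). ALDOA lost its call here without ANBL6 DMSO replicate 1 (0.0584), ANBL6 I3MO replicate 2 (0.0636) or ANBL6BR I3MO replicate 2 (0.0662). All of them kept a negative difference. PGAM1 lost its call here without ANBL6 DMSO replicate 1 (0.0874), ANBL6 I3MO replicate 2 (0.0854) or ANBL6BR I3MO replicate 2 (0.0916). BNIP3 lost its call here without ANBL6 DMSO replicate 1 (0.0784), ANBL6 DMSO replicate 2 (0.146), ANBL6 I3MO replicate 2 (0.152), ANBL6BR DMSO replicate 2 (0.0914), ANBL6BR I3MO replicate 1 (0.0921) or ANBL6BR I3MO replicate 2 (0.131). Without ANBL6BR DMSO replicate 2 the difference was -0.63 for PKM and -0.45 for SLC2A3, both still called.

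Genes around the members were read in lists chosen with these data known. Genes named from a list are among its 3 called genes with the smallest p in a model. A model not named for a gene may thus still hold a call. Of 26 tested neighbours of glycolysis (gluconeogenesis, pyruvate handling and other isozymes), 12 were higher and 4 lower with I3MO in ARP1, beside 23.1% and 13.9% of all tested genes, with a median log2 change of 0.31 against 0.03. In the other models the counts were 2 higher and 0 lower in ANBL6, 4 and 1 in ANBL6BR, 3 and 3 in RPMI8226, and 5 and 4 in U266. The shares higher were 7.69%, 15.4%, 11.5% and 19.2% in that order, beside 4.1%, 10.0%, 6.19% and 10.5% of all tested genes. The shares lower were 0 in ANBL6, 3.85% in ANBL6BR and 11.5% in RPMI8226, beside 3.87%, 8.4% and 8.62%. Shares of lower calls in ARP1 (15.4%) and U266 (15.4%) were near the 13.9% and 15.8% of all tested genes. PCK2, mitochondrial phosphoenolpyruvate carboxykinase, rose in ANBL6 (0.72), ARP1 (1.2), RPMI8226 (1.05) and U266 (1.24, log2 changes called by limma). SLC2A8, a further glucose transporter, rose in RPMI8226 (0.36) and U266 (1.88), while ENO3 was lower in RPMI8226 (-0.59) and PDK2 in U266 (-0.64). Of 7 tested pentose phosphate genes at most 3 were called in any model, too few to read against the background, and TKT, transketolase, was lower in ANBL6BR (-0.26), ARP1 (-0.48) and U266 (-0.24). Of 20 further hypoxia targets 3 were higher and 0 lower in ANBL6, 4 and 1 in ANBL6BR, 8 and 2 in ARP1, 5 and 3 in RPMI8226, and 4 and 3 in U266, and their median log2 changes lay between -0.02 and 0.14. Higher were thus 15% in ANBL6, 20% in ANBL6BR, 40% in ARP1, 25% in RPMI8226 and 20% in U266, beside 4.1%, 10.0%, 23.1%, 6.19% and 10.5% of all tested genes, and the shares lower in ANBL6BR (5%), ARP1 (10%) and U266 (15%) were below their backgrounds of 8.4%, 13.9% and 15.8%. DDIT4, an inhibitor of mTORC1 signalling, rose in ANBL6 (0.78), RPMI8226 (1.13) and U266 (1.39), and STC2, stanniocalcin 2, in ANBL6 (0.49), ARP1 (1.53) and U266 (2.36). Other genes of the list fell: ZNF395 in ANBL6BR (-0.6) and RPMI8226 (-0.58), and PNRC1 in RPMI8226 (-0.9).

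The list of the HIF machinery, which includes the members HIF1A, EGLN1 and EGLN3, had 14 tested genes. Of these 0 were higher and 3 lower in ANBL6, 0 and 2 in ANBL6BR, 2 and 5 in ARP1, 0 and 3 in RPMI8226, and 0 and 2 in U266. Lower were thus 21.4% in ANBL6 and RPMI8226, 14.3% in ANBL6BR and U266 and 35.7% in ARP1, beside 3.87%, 8.62%, 8.4%, 15.8% and 13.9% of all tested genes in ANBL6, RPMI8226, ANBL6BR, U266 and ARP1, so the share in U266 was near its background. CITED2, a HIF1-induced inhibitor that competes for the coactivator CREBBP, fell by 1.18 on the log2 scale in RPMI8226 and by 1.6 in U266. ARNT fell by 0.36 in ANBL6 and by 0.53 in RPMI8226. RBX1 was lower in ANBL6BR (-0.42), ARP1 (-0.46) and U266 (-0.47), and CREBBP in ANBL6 (-0.58) and ARP1 (-0.55). EP300 was lower in ANBL6 (-0.68) and ELOB in ANBL6BR (-0.52). Only the 3 called genes with the smallest p in each model were open to naming. Of 4 tested genes of the aryl hydrocarbon receptor battery, CYP1A1, its best-known target, had log2 changes of -0.40 in ANBL6, 0.76 in ARP1 and -0.40 in RPMI8226, all called by limma, so it rose in ARP1 and fell in the other 2. Also called were AHRR in ANBL6 (-0.35) and ANBL6BR (0.5), NQO1 in ANBL6BR (-0.54) and RPMI8226 (0.77), and TIPARP in ARP1 (0.8). The list's counts were 0 higher and 2 lower in ANBL6, 1 and 1 in ANBL6BR, 2 and 0 in ARP1, 1 and 1 in RPMI8226, and 0 and 0 in U266, too few genes to read against the background.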

How the data were processed

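The members and the gene lists were chosen with earlier results of these data known. The deposited values are FPKM, which the authors made with Trimmomatic (0.32 and 0.36 are both named), STAR and SAMtools on hg38, per the submitters' processing notes. The counting tool and the annotation are not given in the sources used here. The files hold no counts, so a test for counts was not the main test. Symbols and positions came from GENCODE 29 by gene identifier.

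Steps between FPKM values gave each library's fragments and the gene lengths in use. Of 6470 multi-exon genes tested, 100.0% came out whole, to within 0.02, with the exons of all transcripts summed and 36.3% with merged exons. Those genes have the same version in GENCODE 29. The recovered length equalled the summed exons in GENCODE 29 for 28 of the 40 members and differed for 12. Of the 40 members only PGAM1, EGLN1 and HILPDA have the same gene version in GENCODE 29. Members' lengths were 0.828 to 8.426 times the merged exons. Totals were 12.11 to 20.31 M fragments on protein-coding genes per library, and a gene at 0 may have had up to 3 fragments by counting error. Because of the summed lengths, levels of genes with many transcripts are understated.

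Genes with at least 1 FPKM in at least 2 libraries (15687) were fitted as log2(FPKM + 1) by limma 3.58.1 (R 4.3.3), a mean per group over all 20 libraries with a variance trend, two-sided, adjusted by the Benjamini-Hochberg method over all tested genes, and called under 0.05. The code was tested on simulated data. Alternatives were a pseudocount of 0.1, no filter, 1 FPKM in 10 libraries, median-ratio scaling, merged exon lengths, only the groups compared, a replicate block and leaving out each library. Log2 fragments per M (0.5 added) and a crossed block in ARP1 were chosen after seeing the data. Members shown with every library were those called in at least 3 models or in opposite directions and the 3 with the largest change in each comparison; others are summarised or were chosen after their values were seen. Promoter sequences are RefSeq's for GRCh38.p14.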

Additional observations from a re-analysis of the deposited data

Results flagged for a closer look

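The I3MO response differed between ANBL6BR and ANBL6, by the limma test of the difference itself (n = 2 libraries per group), in 10 of 38 members, beside 8.47% of all tested genes. On the log2(FPKM + 1) scale, as ANBL6BR minus ANBL6, the difference was 1.19 for HK2, the 1 member higher. It was -1.38 for NDRG1, -1.17 for GAPDH, -1.04 for ALDOA, -1.01 for PKM, -0.83 for ALDOC, -0.71 for TPI1, -0.69 for SLC2A3, -0.62 for PGAM1 and -0.52 for BNIP3. The joint test of equal I3MO responses in the 5 models called 25 of 38 members, beside 44.5% of all tested genes. The 2 ANBL6BR libraries with DMSO stood apart in GAPDH, ALDOA and PKM: without replicate 2 the difference between ANBL6BR and ANBL6 was called in 10 members, with -0.63 for PKM and -0.45 for SLC2A3, and without replicate 1 in 15. The ANBL6 libraries with I3MO held more genes above 0 than any others, and the part of this in the differences was not tested.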

How the results depend on the processing

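The fits held 100 calls of a member, none of which changed direction in any setting, and 37 were lost without at least 1 single library. Kept were 91 with a pseudocount of 0.1, 92 with no filter and 83 with 1 FPKM in 10 libraries, all of the calls still tested. Median-ratio scaling kept 89, merged exon lengths 96, log2 fragments per M 93, the replicate block 80 and only the groups compared 32. In the last setting 2 libraries per group leave few residual degrees of freedom, and their part in the lost calls was not tested. In ANBL6 the 4 calls became 2 with the pseudocount, 2 with scaling, 2 with merged lengths, 0 with only the groups compared, 0 with the replicate block and 0 to 3 without 1 library. With only the groups compared, the count went from 15 to 0 in ANBL6BR, from 21 to 0 in ARP1, from 15 to 5 in U266 and from 10 to 2 for the difference between ANBL6BR and ANBL6, and the latter was 6 with scaling. The loss was smaller, again with only the groups compared, in RPMI8226 (12 to 9) and for ANBL6BR against ANBL6 with DMSO (23 to 19). In RPMI8226 12 became 7 with 1 FPKM in 10 libraries, where 31 members were tested in place of 38. Without 1 library the counts were 9 to 16 in ANBL6BR, 15 to 19 in ARP1, 7 to 9 in RPMI8226, 12 to 15 in U266, 22 to 26 for ANBL6BR against ANBL6, 21 to 30 for the joint test, 37 to 38 for DMSO levels and 3 to 15 for the difference; it was 3 without ANBL6 DMSO replicate 1, ANBL6 I3MO replicate 2 or ANBL6BR I3MO replicate 2.

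The replicate numbers of the labels did not pair the libraries (correlations of deviations -0.01 in ANBL6, 0.034 in ANBL6BR, -0.113 in ARP1, -0.033 in RPMI8226 and -0.039 in U266). With the replicate block the difference between ANBL6BR and ANBL6 held 4 calls, the joint test 16 and ARP1 18; with the pairing of ARP1 crossed it held 19.

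The enzyme median minus the HIF1 target median, 0.1 in ANBL6, was 0.19 with the pseudocount, 0.16 with no filter, 0.23 with 1 FPKM in 10 libraries, 0.23 with merged lengths and 0.25 on fragments per M, and 0.03 to 0.18 without 1 library. In ARP1, -0.46 became -0.6 with the pseudocount, -0.61 with 1 FPKM in 10 libraries and -0.64 with scaling, and -0.52 to -0.39 without 1 library. In RPMI8226, 0.19 became 0.39 with the pseudocount and -0.07 with 1 FPKM in 10 libraries, and 0.08 to 0.21 without 1 library. It was -0.37 to -0.19 in ANBL6BR and -0.45 to -0.16 in U266 without 1 library. With 1 FPKM in 10 libraries the medians were taken over 16 enzymes in place of 17 and 9 other HIF1 targets in place of 13. The causes of the other shifts were not tested. Members near 0 in a model could not be tested for a fall there.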
